A study of Rattus norvegicus with 6 samples.

Results

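The genes described here are 7 transcripts that rise in many mammalian cells when oxygen is short: Car9, Vegfa, Slc2a1, Egln3, Bnip3, Adm and Pdk1. They were chosen by name, and all 7 were among the 14217 genes that had a probe set annotated with that gene alone on a whole-transcriptome rat oligonucleotide array. RNA came from Achilles tendons of rats at post-natal day 7 and at post-natal day 1, with 3 arrays at each age and at least 2 animals pooled in each sample. No treatment or genetic change is named for either age, and the labels used here name neither strain nor sex. The comparison asks how oxygen-regulated transcripts stand in the tendon after its first post-natal week, and the p-values measure only the spread between the pools. Values are the deposited linear intensities, each change is the day 7 mean less the day 1 mean of log2(intensity + 1), and a gene is called at a limma adjusted p under 0.05 over all 31042 probe sets tested.

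In cells with enough oxygen, prolyl hydroxylases mark the alpha subunits of the hypoxia-inducible factors (HIF), and the VHL ubiquitin ligase then has them degraded. When oxygen is low the alpha subunits persist, pair with Arnt and bind response elements near their target genes. The protein, not the transcript, of the alpha subunit is the main point of control. Targets move glucose into the cell, keep pyruvate out of mitochondria, remove acid, clear mitochondria and call in vessels. Tendon is a sparsely vascularised tissue.

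Of the 7 genes, Car9 and Pdk1 were called higher on day 7, and none was called lower. Car9, a carbonic anhydrase on the cell surface that helps cells export acid, was 2.52-fold higher on day 7, and Pdk1, a kinase that switches off pyruvate dehydrogenase, was 1.56-fold higher. Slc2a1 and Bnip3 had every day 7 array above every day 1 array without passing the test, Egln3 had every day 7 array below, and the 2 secreted signals Vegfa and Adm overlapped between the ages. Among all 14217 genes, 5.08% were called, 1.93% as higher and 3.15% as lower. Day 7 arrays lay wholly above day 1 arrays for 4 of the 7 genes, against 14.0% of all genes, and wholly below for 1, against 19.1%, so that 5 of the 7 did not overlap, against 33.1% of all genes. The members' median log2 change was 0.42, and that of all genes was -0.01. At an unadjusted p under 0.05, 3 of the 7 were higher (Car9, Slc2a1 and Pdk1; 10.6% of all genes) and Egln3 lower (17.0% of all genes). With 7 genes, chosen when earlier results on these arrays were known, these counts describe the set and are not a test of it.

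**Figure D1:**
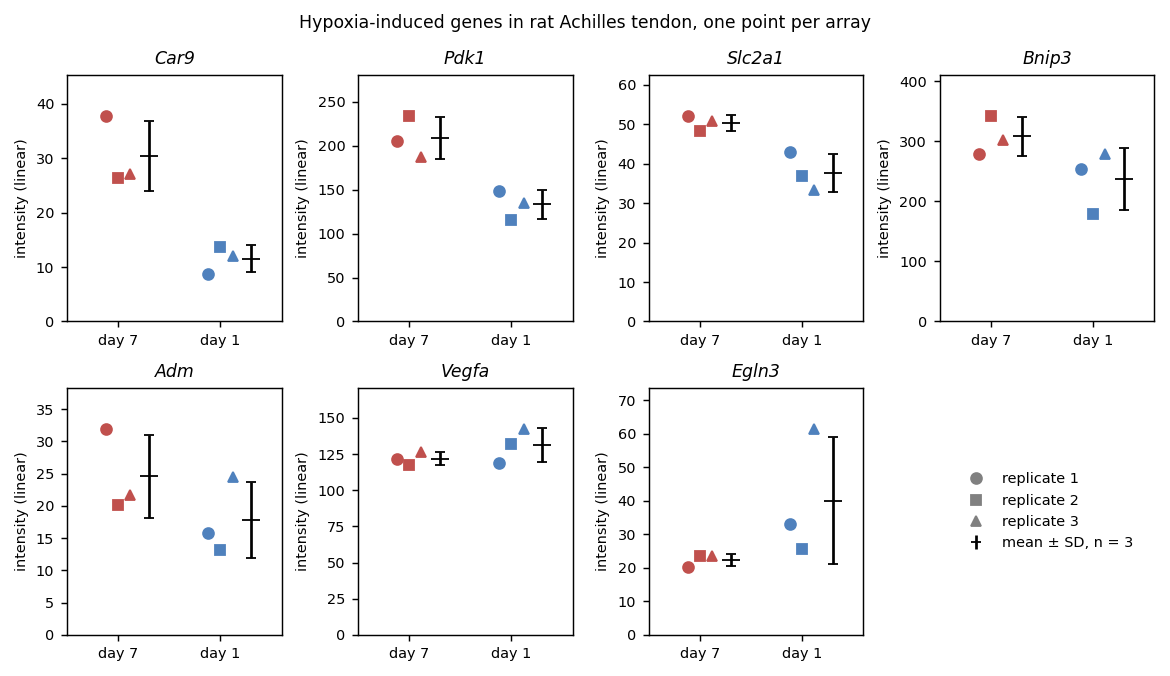
Linear intensity (y axis, a separate scale from 0 for each gene) of the 7 hypoxia-induced genes on the day 7 and day 1 arrays, with the replicate number shown by the symbol and the mean ± SD (n = 3) beside the points. Car9, Pdk1, Slc2a1 and Bnip3 have all day 7 points above all day 1 points, Egln3 has them below, and Adm and Vegfa overlap.

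Car9 read 37.8, 26.5 and 27.1 on the day 7 arrays (replicates 1, 2 and 3), against 8.76, 13.6 and 12.1 on the day 1 arrays (probe set 1393452_at). The ages were set apart, and both lay above the highest negative control value of 4.76, a bacterial trp transcript that rat RNA lacks. Day 1 replicate 1 lay within 2 times that value, so the size of the change depends on the pseudocount. Car9 averaged 30.5 ± 6.39 on day 7 and 11.5 ± 2.50 on day 1 (SD, n = 3 each), a log2 change of 1.33 (SE 0.19; 95% interval 0.89 to 1.78; limma adjusted p = 0.0205). With a pseudocount of 16 the log2 change was 0.75 (adjusted p = 0.0423). The call was lost without day 1 replicate 1 (adjusted p = 0.0602), day 1 replicate 3 (0.0547), day 7 replicate 1 (0.0857) or day 7 replicate 3 (0.0502), with log2 changes of 1.17 to 1.41 in these 4 fits. With replicate number as block it was lost too (adjusted p = 0.0789). In bulk tissue, more cells that hold a transcript and more of it in each cell cannot be told apart.

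Pdk1 read 205.4, 234.3 and 186.7 on day 7, against 149.1, 115.8 and 135.1 on day 1 (probe set 1390203_at). All day 7 arrays were above all day 1 arrays, and replicate 2 was the highest on day 7 and the lowest on day 1. The means were 208.8 ± 24.0 on day 7 and 133.3 ± 16.7 on day 1 (SD, n = 3 each), with a log2 change of 0.64 (SE 0.14; 95% interval 0.33 to 0.96; limma adjusted p = 0.0489). The second probe set of Pdk1 (1368079_at) had means of 96.5 ± 6.01 on day 7 and 67.1 ± 6.20 on day 1 and a log2 change of 0.52 (adjusted p = 0.0531). The call rests close to the threshold: it was lost without any 1 of the 6 arrays (adjusted p from 0.0772 to 0.155), after centring on array medians (0.0530) and with a pseudocount of 16 (0.0604). The same held with replicate number as block (adjusted p = 0.139) and without both arrays numbered 2 (log2 change 0.46; 0.134).

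Slc2a1, the glucose transporter GLUT1 that supplies many cells with basal glucose, read 52.2, 48.2 and 50.8 on day 7, against 42.9, 36.7 and 33.2 on day 1 (1370848_at). Day 7 was higher without overlap, and its arrays lay close together, their highest being 1.08 times their lowest, against 1.29 times on day 1. The log2 change was 0.42 (SE 0.12; 95% interval 0.13 to 0.70; limma adjusted p = 0.101), which did not pass, and it did not pass in any of 15 alternatives (adjusted p from 0.0704 to 0.250).

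Bnip3, a protein of the outer mitochondrial membrane that marks mitochondria for removal by autophagy, read 279.6, 342.6 and 301.9 on day 7, against 253.6, 179.4 and 279.2 on day 1 (1387805_at). The lowest day 7 array and the highest day 1 array were nearly level, and day 1 replicate 2 stood low. The log2 change was 0.39 (SE 0.18; 95% interval -0.02 to 0.80; limma adjusted p = 0.244), and 0.20 without day 1 replicate 2.

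The promoter windows of 4 genes, Car9, Pdk1, Slc2a1 and Bnip3, held the core of the HIF response element, and their sequences are shown. The windows are RefSeq's for the assembly GRCr8, from 250 bases before to 50 bases after the annotated start, and all 7 genes matched by symbol. The core was searched as ACGTG and as GCGTG on both strands. Capitals mark the matches in the letters of the gene's strand, so a match on the other strand appears as CACGT or CACGC, and the run CACGTG holds ACGTG on both strands. The whole window of Car9 spans chr5:62558774-62559073 (plus strand) and that of Pdk1 spans chr3:77113264-77113563 (plus strand). Shorter stretches of 80 bases are given for Slc2a1 (with 3 of its 4 matches), chr5:138002431-138002510 (plus strand), and for Bnip3, chr1:203155020-203155099 (minus strand).
Car9: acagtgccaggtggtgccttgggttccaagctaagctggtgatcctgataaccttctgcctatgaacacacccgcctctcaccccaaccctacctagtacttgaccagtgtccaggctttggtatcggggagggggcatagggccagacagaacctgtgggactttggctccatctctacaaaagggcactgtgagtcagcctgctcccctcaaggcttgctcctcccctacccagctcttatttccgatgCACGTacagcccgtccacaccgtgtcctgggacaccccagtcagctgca
Pdk1: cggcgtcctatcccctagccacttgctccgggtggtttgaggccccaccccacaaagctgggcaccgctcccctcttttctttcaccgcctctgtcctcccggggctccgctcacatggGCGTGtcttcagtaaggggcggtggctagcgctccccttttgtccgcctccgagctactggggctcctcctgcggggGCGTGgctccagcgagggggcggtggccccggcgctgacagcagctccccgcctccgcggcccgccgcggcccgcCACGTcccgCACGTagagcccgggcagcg
Slc2a1: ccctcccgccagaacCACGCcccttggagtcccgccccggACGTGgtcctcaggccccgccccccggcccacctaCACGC
Bnip3: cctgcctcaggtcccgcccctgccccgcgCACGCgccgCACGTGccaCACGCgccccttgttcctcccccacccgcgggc

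Car9 held 1 match, whose first base is base 2 of the transcribed side, directly at the annotated start. Pdk1 held 4 matches, of which 2 lay upstream of the start and 2 within the first 50 bases after it. Slc2a1 held 4, of which 3 are GCGTG. Bnip3 held 4 within 108 bases of the start, among them both strands of CACGTG. No match to these letters lay in the windows of Adm and Egln3 or in either of the 2 windows of Vegfa. Sequence outside the windows was not searched, so elements farther from the start or inside a gene would be missed. Such matches are common. Of the 11733 measured genes that have a window, 59.1% held a match, close to the 4 of 7 here, and of all 33469 windows 19.3% held ACGTG, 29.7% GCGTG and 41.6% either. Across the measured genes that have a window, day 7 lay wholly above day 1 for 12.7% of the 6939 genes with a match, against 15.1% of the 4794 genes without one. These shares are a description, and the matches were not tested against the change.

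**Figure D2:**
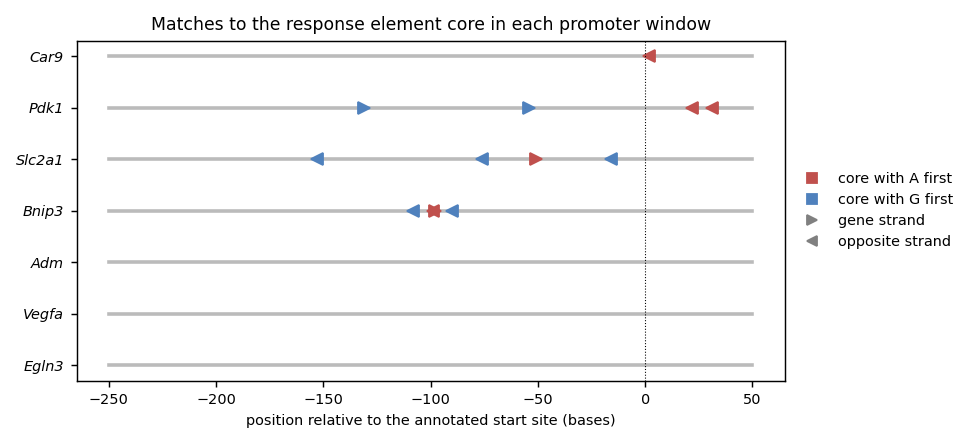
Position of each match to the core of the HIF response element (x axis, bases from the annotated start) in the 300-base promoter window of each gene, with colour for the first base of the core and arrow direction for the strand. Car9, Pdk1, Slc2a1 and Bnip3 hold 1, 4, 4 and 4 matches, and Adm, Vegfa (its first window is drawn) and Egln3 hold none.

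Neither secreted signal separated the ages. Vegfa, the main growth factor for blood vessels, read 121.5, 117.3 and 126.4 on day 7, against 119.1, 131.7 and 142.4 on day 1 (1373807_at). The ages overlapped and the day 7 arrays lay within 1.08 times of each other. Its log2 change was -0.10 (SE 0.11; limma adjusted p = 0.629), 0.00 after quantile normalization (95% interval as measured -0.36 to 0.15). The second probe set (1370081_a_at) read 16.4 to 18.6 on day 7 and 16.3 to 18.8 on day 1, with a log2 change of 0.02 (adjusted p = 0.953). Adm, which encodes the vasodilator peptide adrenomedullin, read 31.9, 20.2 and 21.6 on day 7, against 15.8, 13.2 and 24.5 on day 1 (1387219_at). Day 1 replicate 3 stood above 2 of the day 7 arrays, and the log2 change of 0.46 (SE 0.25; 95% interval -0.11 to 1.03; adjusted p = 0.323) did not pass. Leaving out day 7 replicate 1 gave 0.26, leaving out day 1 replicate 2 gave 0.28 and leaving out day 1 replicate 3 gave 0.70, and none of these passed.

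Egln3, a prolyl hydroxylase that marks HIF for degradation and is itself induced by HIF, had the opposite order of ages. It read 20.4, 23.4 and 23.4 on day 7, against 33.1, 25.5 and 61.4 on day 1 (1368174_at). All day 7 arrays lay below all day 1 arrays, but on day 1 the highest array was 2.41 times the lowest, against 1.15 times on day 7. The means were 22.4 ± 1.76 on day 7 and 40.0 ± 19.0 on day 1 (SD, n = 3 each), with a log2 change of -0.71 (SE 0.28; 95% interval -1.37 to -0.06; limma adjusted p = 0.190). Without day 1 replicate 3 the log2 change was -0.36 (adjusted p = 0.288). None of 15 alternatives gave a call (adjusted p from 0.0776 to 0.373).

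Within day 1 the genes also differed from array to array. Replicate 3 was the highest day 1 array for 4 of them, Egln3, Adm, Bnip3 and Vegfa, and replicate 2 was the lowest for 4, Egln3, Adm, Bnip3 and Pdk1. Car9 was highest on replicate 2 and lowest on replicate 1, and Slc2a1 was highest on replicate 1 and lowest on replicate 3. The skeletal muscle list of 22 genes, as the median of its genes relative to their means over the 6 arrays, stood at 0.37, 0.13 and 0.50 on day 1 replicates 1, 2 and 3. Egln3, Adm and Bnip3 had that order of arrays, and Car9, Vegfa, Slc2a1 and Pdk1 did not. The erythroid list of 8 genes stood at -0.35, -0.22 and 0.57, and the epidermis list of 10 genes at 3.64, -0.99 and -0.82. On day 7, replicate 2 was the highest array for Egln3, Bnip3 and Pdk1 and the lowest for Car9, Vegfa, Slc2a1 and Adm. There the muscle list was -0.01 and the erythroid list 0.61, against -0.42 and -0.84 on replicate 1 and -0.72 and 0.14 on replicate 3. The part of muscle, blood and epidermal content in the levels of these genes was not tested.

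**Figure D3:**
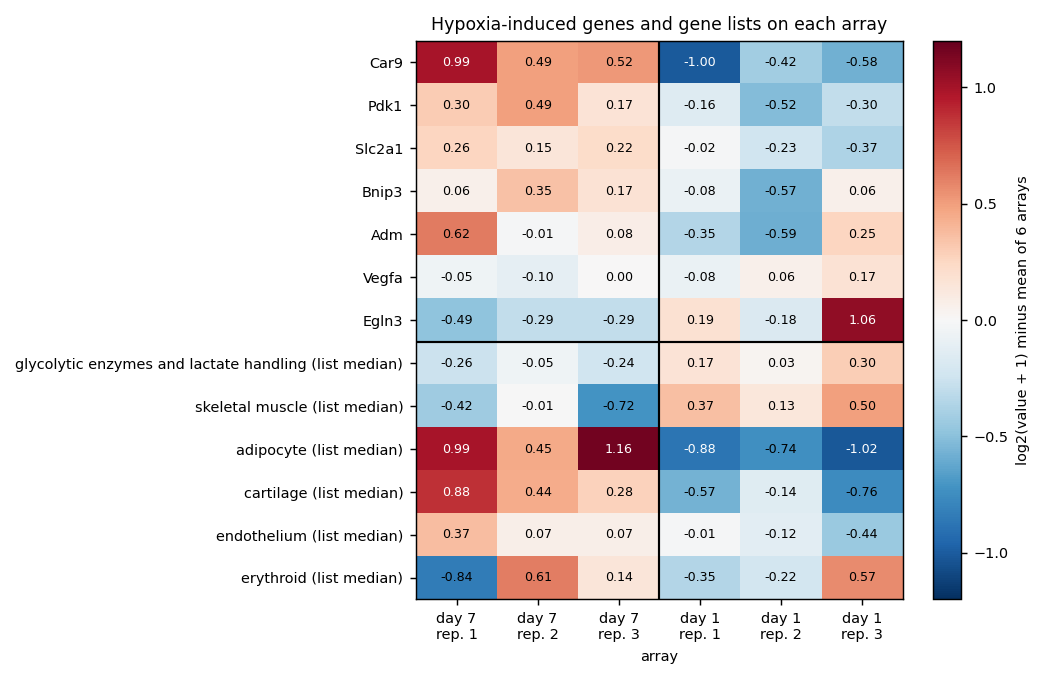
Each cell gives log2(intensity + 1) minus the mean of the 6 arrays for a hypoxia-induced gene (upper rows) or the median of that difference over a gene list (lower rows), with arrays as columns and colour from blue (low) to red (high). Car9 stands at 0.99 on day 7 replicate 1, and Egln3 stands at 1.06 on day 1 replicate 3.

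The samples held transcripts of tendon and of other tissues. The 22 skeletal muscle genes summed higher than the 11 tendon genes on every array. Scx, a transcription factor of the tendon lineage, had a mean intensity of 811.6 on day 7, against 749.05 on day 1. Tnmd, a membrane protein of mature tendon, had a mean of 5562 on day 7, against 3518 on day 1. Of the marker lists, adipocyte genes were called higher for 9 of 13, and their summed intensity was 3327 to 6732 on day 7, against 1725 to 1895 on day 1. Cartilage genes were called higher for 2 of 12 (sums of 5421 to 9007 on day 7, against 2006 to 5019 on day 1), and endothelial genes for 1 of 10 (2578 to 3054 on day 7, against 1819 to 2604 on day 1). Skeletal muscle genes were called lower for 5 of 22 and higher for 1 (56138 to 80519 on day 7, against 85644 to 105922 on day 1). The 10 epidermal genes summed to 6923 on day 1 replicate 1, against 190.4 to 459.3 on the other arrays. Leptin, Lep, and the adult myosin Myh4 were below 9.51, a level of 2 times the highest negative control value, on every array. Nerve and Schwann cell genes were called higher for 1 of 7 and lower for 1, and their day 7 sums were 5816 (replicate 1), 2263 (replicate 2) and 8856 (replicate 3), against sums between 1893 and 2233 on day 1. The 11 tendon genes were called higher for 2 and lower for 1, and 3 of them had a negative change. Their sums were 49162 to 63793 on day 7, against 29175 to 46849 on day 1. Macrophage and neutrophil genes were called higher for 1 of 12 and lower for 1, and none of the 8 erythroid or 10 epidermal genes was called. Beside these counts, 1.93% of all genes were called higher and 3.15% lower. The median log2 changes were 1.83 for the adipocyte list, 1.27 for nerve, 1.03 for cartilage, 0.43 for tendon, 0.37 for endothelium, -0.29 for macrophages and neutrophils and -0.78 for muscle. Car9 and Pdk1 were higher on day 7, as were the fat, nerve, cartilage, tendon and endothelial lists by their medians. The part of these tissues in the change of Car9 and Pdk1 was not tested.

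Relatives of the called genes went in different directions. Among 13 other measured carbonic anhydrases, Car5b, a mitochondrial form, read 30.1, 23.4 and 55.1 on day 7, against 5.89, 8.22 and 5.89 on day 1, and Car14, a membrane form, read 35.2, 39.7 and 25.4 on day 7, against 66.1, 66.6 and 95.3 on day 1. Car5b was thus higher on every day 7 array and Car14 lower on every one. Their log2 changes were 2.20 (SE 0.29; limma adjusted p = 0.0152) and -1.16 (SE 0.20; 0.0304), and the day 1 level of Car5b was near the control level, so the size of its change is uncertain. With a pseudocount of 16 the change of Car5b was 1.16 and its call was lost (adjusted p = 0.0589), as was that of Car14 (-0.89; 0.0561). On the second probe set of each gene, Car5b stood at 1.05 (limma adjusted p = 0.0111) and Car14 at -0.83 (0.0469) on the log2 scale. Car9, Car5b and Car14 were the called ones among the 14 carbonic anhydrases measured, where 5.08% of all genes were called.

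Pdk4, a sister kinase of Pdk1 that rises in fasting and fat use, read 174.1, 365.4 and 194.6 on day 7, against 1083, 933.9 and 1095 on day 1. The ages were far apart, in the direction opposite to Pdk1, with a log2 change of -2.16 (SE 0.26; limma adjusted p = 0.0141). A second probe set of Pdk4 had a log2 change of -0.58 (adjusted p = 0.0694). Pdk2 and Pdk3, the remaining kinases of the family, had log2 changes of -0.05 (SE 0.28; adjusted p = 0.934) and 0.23 (SE 0.12; 0.304). Of the 9 measured genes of pyruvate dehydrogenase, its other kinases and its phosphatases, Pdk4 alone passed, as lower on day 7 (3.15% of all genes were called lower). The list's median was -0.33 on the log2 scale. By array, this list's median was -0.17, 0.11 and -0.35 on day 7 (replicates 1, 2 and 3), against 0.26, -0.08 and 0.34 on day 1. The muscle list was -0.42, -0.01 and -0.72 on day 7, against 0.37, 0.13 and 0.50 on day 1. The part of muscle content in the change of Pdk4 and of this list was not tested.

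**Figure D4:**
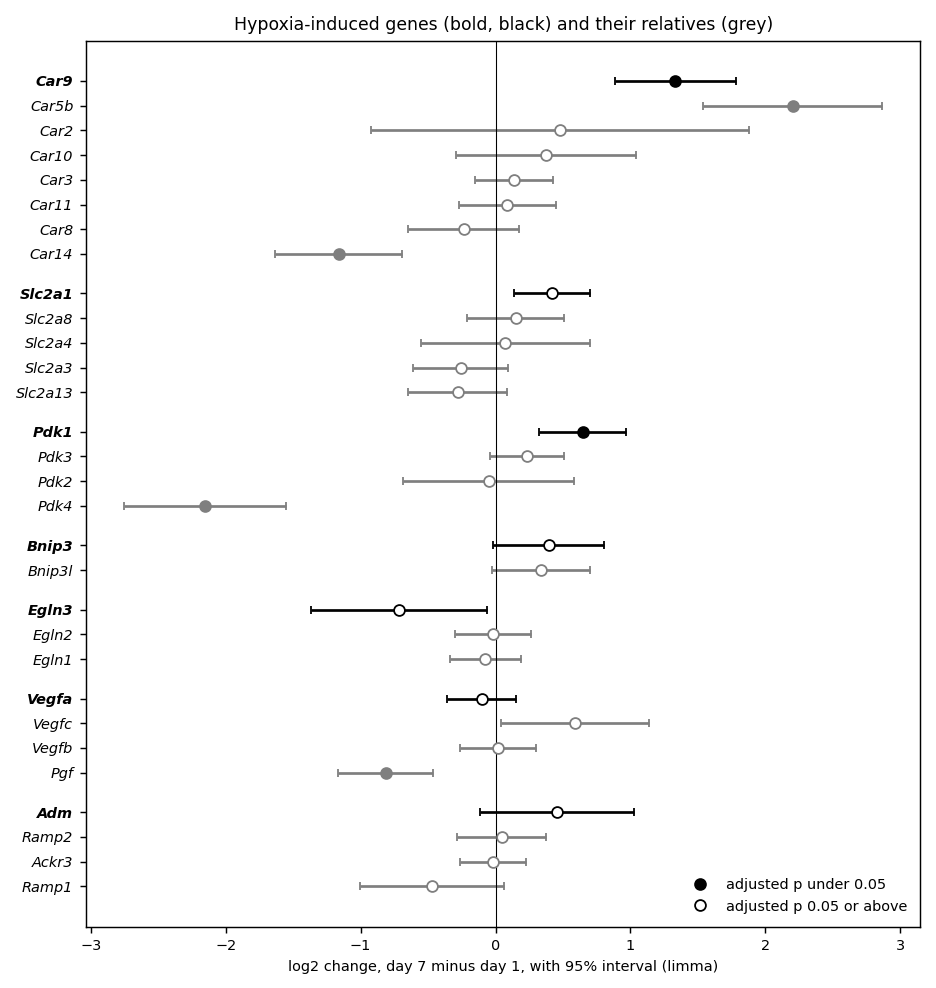
Log2 change, day 7 minus day 1 (x axis), with its 95% interval from limma for the 7 hypoxia-induced genes (bold names, black) and for those relatives with a mean intensity of at least 15 (grey), filled where the adjusted p is under 0.05. Of the filled points, Car9, Pdk1 and Car5b lie to the right of 0, and Pdk4, Car14 and Pgf to the left. Of the open points, Slc2a1 and Egln3 have intervals that exclude 0, and the intervals of Egln1, Egln2, Vegfb and Ramp2 include 0.

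The machinery that reads oxygen had no called gene among 15 measured. At an unadjusted p under 0.05, 4 were higher and 0 lower (background 27.6% of all genes in either direction). By direction, that background was 10.6% of all genes higher and 17.0% lower. Day 7 arrays lay wholly above day 1 arrays for 6 of the 15, against 14.0% of all genes. They lay wholly below for 1, against 19.1% of all genes. Hif3a, counted as higher and as wholly above, was below 9.51 on every array. Hif1a, the alpha subunit of HIF-1, read 644.8, 522.3 and 605.5 on day 7, against 437.5, 434.3 and 435.4 on day 1. Its arrays did not overlap between the ages, and its log2 change of 0.43 (SE 0.11; limma adjusted p = 0.0800) did not pass. On the same scale Epas1, the alpha subunit of HIF-2, stood at 0.32 (SE 0.13; limma adjusted p = 0.211), the partner subunit Arnt at 0.31 (SE 0.25; 0.505) and Vhl at 0.24 (SE 0.11; 0.257). The other HIF prolyl hydroxylases Egln1 and Egln2 had log2 changes of -0.07 (95% interval -0.33 to 0.18) and -0.02 (-0.30 to 0.26), whose sign turned after quantile normalization. The median of the list was 0.24. Hif1an, the asparagine hydroxylase of HIF, was not analysed here.

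Of 37 other genes known to respond to hypoxia, 4 were called higher and 1 lower, with a median log2 change of 0.13. Of all genes, 1.93% were called higher and 3.15% lower. Day 7 arrays lay wholly above day 1 arrays for 9 of the 37, against 14.0% of all genes. They lay wholly below for 5, against 19.1% of all genes. Ankrd37, a small ankyrin repeat protein that HIF-1 induces, read 24.9, 20.9 and 20.1 on day 7, against 12.5, 14.8 and 11.3 on day 1. Its log2 change was 0.73, with an SE of 0.14 (limma adjusted p = 0.0350). Bhlhe41, a transcriptional repressor also tied to the circadian clock, was 3.32-fold higher (adjusted p = 0.0141), the collagen prolyl hydroxylase subunit P4ha1 1.81-fold (0.0336) and the chemokine Cxcl12 1.71-fold (0.0313). The other probe sets of Cxcl12 had log2 changes of 0.76 (adjusted p = 0.0838) and 0.52 (0.0981). Neither passed, though day 7 lay wholly above day 1 on both. Angptl4, a secreted inhibitor of lipoprotein lipase, was 3.92-fold lower on day 7 (adjusted p = 0.0222), with 68.5 to 116.4 on day 7 and 227.6 to 507.6 on day 1. It is also a target of fatty acid and glucocorticoid signalling, as is Pdk4. The stress genes Ndrg1 and Ddit4 had log2 changes of 0.69 (SE 0.26; adjusted p = 0.169) and 0.13 (SE 0.25; 0.804), and both overlapped between the ages. Ndrg1 was called without day 7 replicate 2 (log2 change 0.99; adjusted p = 0.0374) and without both arrays numbered 2 (1.07; 0.0377). Its second probe set had every day 7 array above every day 1 array, with a log2 change of 0.67 (adjusted p = 0.0726). For Bnip3l, the closest relative of Bnip3, the log2 change was 0.34 (SE 0.16; limma adjusted p = 0.261), and on its second probe set 0.77 (SE 0.13; 0.0259). With a pseudocount of 16 the calls of Ankrd37 (log2 change 0.40; adjusted p = 0.0547) and P4ha1 (0.83; 0.0520) were lost. Single arrays weighed on these calls. Without day 7 replicate 1, none of the 11 calls among the 122 pathway genes held (limma adjusted p from 0.0636 to 0.155), and without day 1 replicate 1 only that of Angptl4 held (0.0465). Epo, the hormone of red cell production, was below 9.51 on every array.

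Glycolytic enzymes, many of them HIF targets too, mostly had lower values on day 7, and 1 passed the test in each direction. Of 15 measured genes of glycolysis and lactate handling, the brain-type aldolase Aldoc rose 1.50-fold (limma adjusted p = 0.0434), the platelet-type phosphofructokinase Pfkp was 1.57-fold lower (0.0395), and 13 of the 15 had a negative change. Among all 14217 genes, 7393 had a negative change, 1.93% were called higher and 3.15% lower. Day 7 lay wholly above day 1 for 2 of the 15 and wholly below for 6, against 14.0% and 19.1% of all genes. The call of Aldoc was lost with a pseudocount of 16 (adjusted p = 0.0505) and with an intensity trend (0.0595), and that of Pfkp after quantile normalization (0.0828). Ldha, the lactate dehydrogenase subunit that HIF induces, read 1480, 1903 and 1749 on day 7, against 2362.5, 2390 and 3138 on day 1. All day 7 arrays of Ldha were lower, and its log2 change of -0.62 (SE 0.15; adjusted p = 0.0711) just missed the threshold. For the phosphoglycerate kinase Pgk1 it was -0.14 (SE 0.12; adjusted p = 0.534). The list's median was -0.26, and its median over arrays was -0.26, -0.05 and -0.24 on day 7, against 0.17, 0.03 and 0.30 on day 1. The muscle list, given above, was likewise lower on day 7 and highest on day 1 replicate 3, and its part in this result was not tested.

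Of the partners of the secreted signals, Pgf was the called one. Of 12 measured VEGF and angiopoietin ligands and receptors, Pgf, the placental growth factor that binds Flt1, fell to 20.7, 18.1 and 17.9 on day 7, against 30.4, 30.2 and 42.3 on day 1. Pgf passed the test with a log2 change of -0.81 and an SE of 0.15 (limma adjusted p = 0.0350). None of the list was called higher, though 9 of the 12 had a positive change. At an unadjusted p under 0.05, 2 were higher and 1 lower, against 10.6% and 17.0% of all genes. The second probe set of Pgf overlapped between the ages (log2 change -0.22; adjusted p = 0.454), and with the mean of its probe sets the change was -0.52 and did not pass (0.0555). The receptors Kdr and Flt1 had log2 changes of -0.01 (SE 0.16; adjusted p = 0.985) and 0.25 (SE 0.16; 0.388). None of 7 adrenomedullin receptor genes and relatives was called, nor had any an unadjusted p under 0.05 (27.6% of all genes did). The log2 change of the coreceptor Ramp2 was 0.05 (SE 0.14; limma adjusted p = 0.884), and the receptor Calcrl was below 9.51 on every array. None of 8 other glucose transporters was called or had an unadjusted p under 0.05: Slc2a3 had a log2 change of -0.26 (SE 0.15; 0.365), and Slc2a4, the insulin-dependent transporter of muscle and fat, one of 0.07 (SE 0.27; 0.904). Of 8 mitophagy genes none was called (0 higher and 1 lower at an unadjusted p under 0.05, against 10.6% and 17.0% of all genes).

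The genes nearest to each member, by root mean square distance of the centred log2 profiles over the 6 arrays among the brighter genes, were as follows. Tent5a and Sncg lay nearest to Car9 at 0.16 and 0.21, and both were called higher (limma adjusted p = 0.0301 and 0.0154). Tiparp and Psat1 lay nearest to Pdk1 at 0.08 and 0.09 and were also called higher (0.0373 and 0.0209). The nearest to Slc2a1 were Ly6e (0.03) and Map2k6 (0.05), to Bnip3 Mpc1 (0.09) and Phyh (0.10), and to Vegfa Rpl14 (0.03) and Prmt2 (0.04). For Egln3 they were Traf5 (0.11) and Agpat3 (0.14), and for Adm LOC102555217 and Lrba (0.16 each). With 14217 genes and 6 arrays, close profiles arise readily, and the distances are a description.

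**Figure D5:**
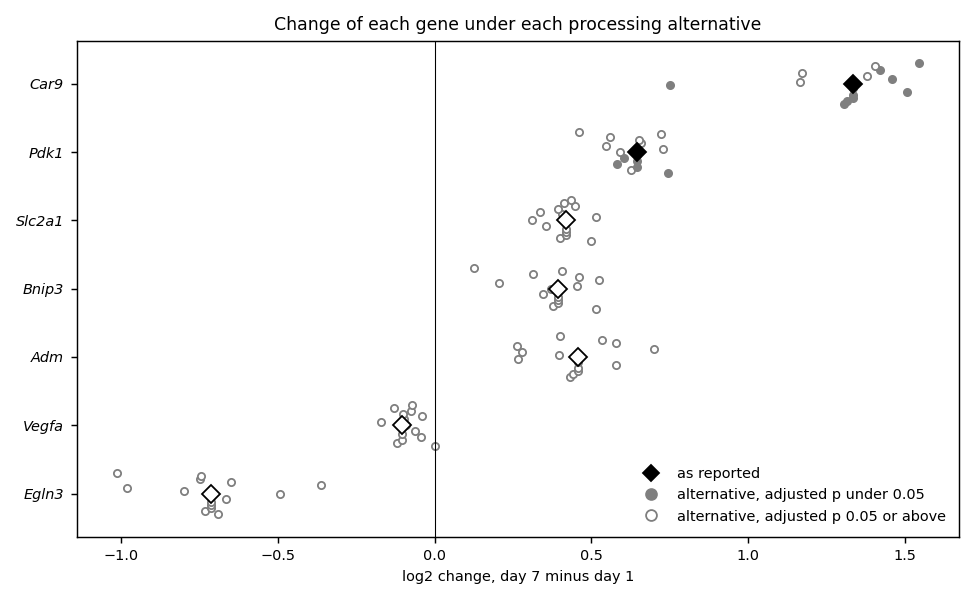
Log2 change, day 7 minus day 1 (x axis), of each hypoxia-induced gene as reported (diamond) and under each processing alternative (circles, spread vertically), filled where the adjusted p is under 0.05. Car9 and Pdk1 stay to the right of 0 and Egln3 to the left under every alternative run, while 5 of the 14 circles of Car9 and 10 of the 15 of Pdk1 are open.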

How the data were processed

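Samples were grouped by the age in their titles, with 3 arrays each. For every array the authors deposited linear intensity values, 1 for each probe set. MAS5 and RMA are named without roles per the submitters' processing notes, and which made the values, with its background correction and scaling, is not given in the sources used here. Medians ran from 20.5 to 21.1. The upper quartile was 84.1 to 91.8 on day 7, against 94.3 to 95.9 on day 1. The lower quartile was 7.32 to 7.90 on day 7, against 6.91 to 7.08 on day 1. The spread of values thus differed between the ages, and a remaining difference of scale cannot be told apart from age. With arrays, their number limits the precision.

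The values were taken as log2(intensity + 1) and not normalized further. After removal of 57 control probe sets, 31042 remained, of which 20826 named 1 gene, 436 several and 9780 none. Symbols were checked through RefSeq gene identifiers (20758 matched, 0 changed). Where several probe sets named a gene, the one of highest mean log2 value was used. Day 7 was compared with day 1 by limma 3.58.1 in R 4.3.3 (lmFit and eBayes, two-sided), with p-values adjusted by Benjamini-Hochberg across those 31042. The code was tested on simulated data. The members, the lists and the tests were chosen with earlier results of these data known. Named were the members, every called gene of the pathway lists, a fixed set of HIF regulators and relatives, and the 2 nearest genes of each member. Vegfb, Epo, Lep, Myh4, Scx, Tnmd, Angpt2, Vegfc and Pfkfb3 lie outside this rule and were named after their values were seen. Alternatives were quantile normalization, array median centring, only the brighter probe sets, the mean of probe sets, an intensity trend, a pseudocount of 16, weighted arrays, replicate number as block, each array left out and both arrays numbered 2 left out.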

Additional observations from a re-analysis of the deposited data

How the results depend on the processing

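Of the 7 hypoxia-induced genes, 2 were called as reported, and the count was 1 after centring on array medians, 1 among brighter probe sets (Car9 and Adm fall below that filter), 1 with a pseudocount of 16, 1 without both arrays numbered 2, 0 with the replicate block (limma; 4 at an unadjusted p under 0.05) and 0 to 1 without 1 array (3 to 6 unadjusted). It was 1 without either array numbered 2 and 0 without any of the other 4. The direction of each gene held in every alternative except for Vegfa, at 0.0013 after quantile normalization. Over all genes the 722 calls became 1435 with array weights, 33 with the replicate block and 4 to 653 without 1 array, the 4 being without day 7 replicate 1, with 63 and 168 without day 1 replicates 1 and 3 and 166 without day 7 replicate 3. Higher genes were 38.0% of the calls as reported and 52.5% after quantile normalization. Over the pathway lists the 11 calls became 0 with the replicate block (34 unadjusted), 5 with a pseudocount of 16 and 0 to 10 without 1 array, with 0 without day 7 replicate 1 (34 unadjusted), 1 without day 1 replicate 1, 2 without day 1 replicate 3, 7 without day 7 replicate 2 and 4 without day 7 replicate 3. Same-numbered arrays did not deviate together (correlations of 0.05, -0.25 and -0.14), so the numbers are not taken as pairs. Uncalled genes that changed sign were, by quantile normalization, Calcrl (-0.021), Egln1 (0.042), Egln2 (0.083), Kdr (0.081) and Pdk2 (0.059). With the mean of probe sets they were Egln1 (0.17), Kdr (0.060) and Slc2a4 (-0.015). Slc2a4 turned to -0.011 with array weights. Without both arrays numbered 2 they were Ddit4 (-0.22), Egln2 (0.061), Kdr (0.19) and Slc2a4 (-0.37). Without 1 array the ranges were -0.018 to 0.18 for Calcrl, -0.17 to 0.32 for Ddit4, -0.12 to 0.063 for Egln2, -0.11 to 0.15 for Kdr, -0.33 to 0.13 for Pdk2, -0.091 to 0.16 for Ramp2 and -0.20 to 0.28 for Slc2a4. The cause was not tested. Genes near the negative control level have no reliable fold change.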

Other observations

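Some relatives were read differently by different probe sets. Pfkfb3, an activator of glycolysis, had a log2 change of 0.25 (adjusted p = 0.298, limma) on the probe set used here and of 1.19 (adjusted p = 0.0238) on another, which read 29.6 ± 7.56 on day 7 and 12.2 ± 1.74 on day 1 (SD, n = 3 each). A second probe set of Egln1 had a log2 change of 0.42 (adjusted p = 0.0912), against -0.07 on the brighter one. Which transcript forms these probe sets detect was not analysed here.

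Angpt2, the angiopoietin that loosens vessel walls, and Vegfc, the lymphatic growth factor, had day 7 arrays wholly above day 1 arrays while Vegfa overlapped. Their log2 changes were 0.75 (SE 0.19; limma adjusted p = 0.0739) and 0.59 (SE 0.24; 0.197), and neither passed. Both were picked after their values were seen.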
